A study of Mus musculus with 2 samples.

Results

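miR-31 was examined here through both arms of its hairpin, miR-31-5p and miR-31-3p, in small RNA libraries of mouse helper T cells. The members were the rows named for either arm in the deposited table of each library, and both arms were listed in both libraries, as 2 of the 1125 mature miRNAs listed in at least 1 of them. Naive CD4+CD62L+ T cells from the spleens of female C57BL/6 mice were grown in RPMI medium with 10% serum, and each group was 1 library. The Th0 culture, the control, received anti-CD28 (1 µg/ml), anti-IL-4 (5 µg/ml) and anti-IFN-γ (5 µg/ml). The Th17 culture, driven toward the state that produces interleukin-17, received these antibodies at the same doses, anti-IL-2 and anti-IL-12 (each at 5 µg/ml), TGF-β (2 ng/ml), IL-6 (40 ng/ml), IL-1β (10 ng/ml) and IL-23 (40 ng/ml), and was kept for 6 to 7 days. No duration is stated for the control culture. Culture time, the cytokines and the antibodies given only to the Th17 culture therefore cannot be told apart. The series text speaks of triplicates, but each table analysed here holds 1 column of reads, and how the triplicates enter it is not stated. The TPM column of the Th0 table is headed Th01, and whether that marks a first replicate is not stated either. No test of the conditions was therefore possible. Every interval below is at the 95% level, treats reads as independent and covers only the error of counting them, not the spread between cultures.

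A miRNA hairpin is cut by Drosha and then by Dicer into a short duplex, and the arm that enters an Argonaute protein guides it to messenger RNAs that pair with the seed, bases 2 to 8 of the miRNA. The other arm is mostly degraded. In human T cells miR-31 was reported to bind the 3′ untranslated region (UTR) of FOXP3, the transcription factor that defines regulatory T cells (Treg cells). In mice, loss of miR-31 in T cells was reported to favour Treg cells induced in the periphery, with the retinoic acid-inducible receptor gene Gprc5a as a target. TGF-β, one of the agents added only to the Th17 culture, is also the cytokine that induces Foxp3 in naive T cells. It was not added alone there but together with IL-6, IL-1β, IL-23, anti-IL-2 and anti-IL-12, so Foxp3 induction cannot be assumed. Foxp3 itself was not measured in these small RNA libraries.

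The mature sequences are shown because the seed, in capitals, sets which transcripts each arm can pair with. They are RefSeq's, 5′ to 3′, in build GRCm38.p6, the assembly also called mm10.
miR-31-5p: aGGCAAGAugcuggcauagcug
miR-31-3p: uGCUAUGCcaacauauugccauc
The arms were 22 and 23 bases long and their seeds differed. None of the other mature miRNAs in the RefSeq table of 1679 names shared either seed, and none shared bases 2 to 7 of either arm. miR-31 thus has no seed family in that table whose reads could be added to it. The hairpin below, 106 bases long, shows how the arms (capitals) sit on either side of a stretch of 14 bases.
mir-31 hairpin: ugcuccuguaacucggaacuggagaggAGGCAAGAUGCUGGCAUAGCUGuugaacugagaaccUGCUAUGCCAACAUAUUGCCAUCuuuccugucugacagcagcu

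Mir31 lies on the minus strand at chr4:88910557-88910662. In GENCODE M21 it falls within an exon (chr4:88909855-88910710) of AL805899.1, a long noncoding RNA on the same strand. The nearest protein-coding gene on the lower-coordinate side was the interferon gene Ifne, 30.4 kb away, and on the other side Mtap, a gene of methionine salvage, 226.5 kb away. For neighbouring hairpins, only those with a listed miRNA matched by name were searched, so a nearby hairpin without one would be missed. The nearest of those searched on that chromosome were Mir491, 0.788 Mb away, and Mir872, 5.754 Mb away on the other side. Their miRNAs did not share one direction. miR-491-3p had 13 reads in Th0 and 3 in Th17, and miR-491-5p had 7 and 14. miR-872-5p was at 266 and 331 CPM (reads per 1000000 listed reads of the library), and miR-872-3p at 242 and 252 CPM.

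miR-31-5p, the guide arm, was lower in the Th17 library. It had 9879 reads in Th0, or 1182 CPM (exact Poisson interval 1159 to 1206), and 6949 reads in Th17, or 580 CPM (567 to 594). The intervals did not overlap, and Th0 was the higher library. The ratio was 2.04-fold lower in Th17, with an exact conditional interval of 1.98 to 2.10 that includes 2. On the log2 scale with 0.5 CPM added to each value, the ratio of Th17 over Th0 was -1.03. miR-31-5p was 65th by reads among the 986 miRNAs listed in Th0 and 91st among the 1012 listed in Th17, so that 93.4% of the miRNAs listed in Th0 and 91.0% of those in Th17 had fewer reads. In bulk RNA, fewer cells that make miR-31 and less miR-31 in each cell cannot be told apart.

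miR-31-3p, the arm that mostly disappears after processing, had 63 reads in each library. Scaled to the listed reads, that was 7.54 CPM in Th0 (5.79 to 9.64) and 5.26 CPM in Th17 (4.04 to 6.73). These intervals overlapped. The level was 1.43-fold lower in Th17, with an interval of 0.994 to 2.06, so a difference in either direction was within counting error at this depth, as was one as large as that of miR-31-5p. With a mean of 6.40 CPM, miR-31-3p fell below the minimum of 10 CPM that was set for calls, and 1 of the 2 members passed it. The 5p arm held nearly all reads of the hairpin, and both arms added together gave 1190 CPM in Th0 against 586 CPM in Th17, 2.03-fold lower (1.97 to 2.09).

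**Figure D1:**
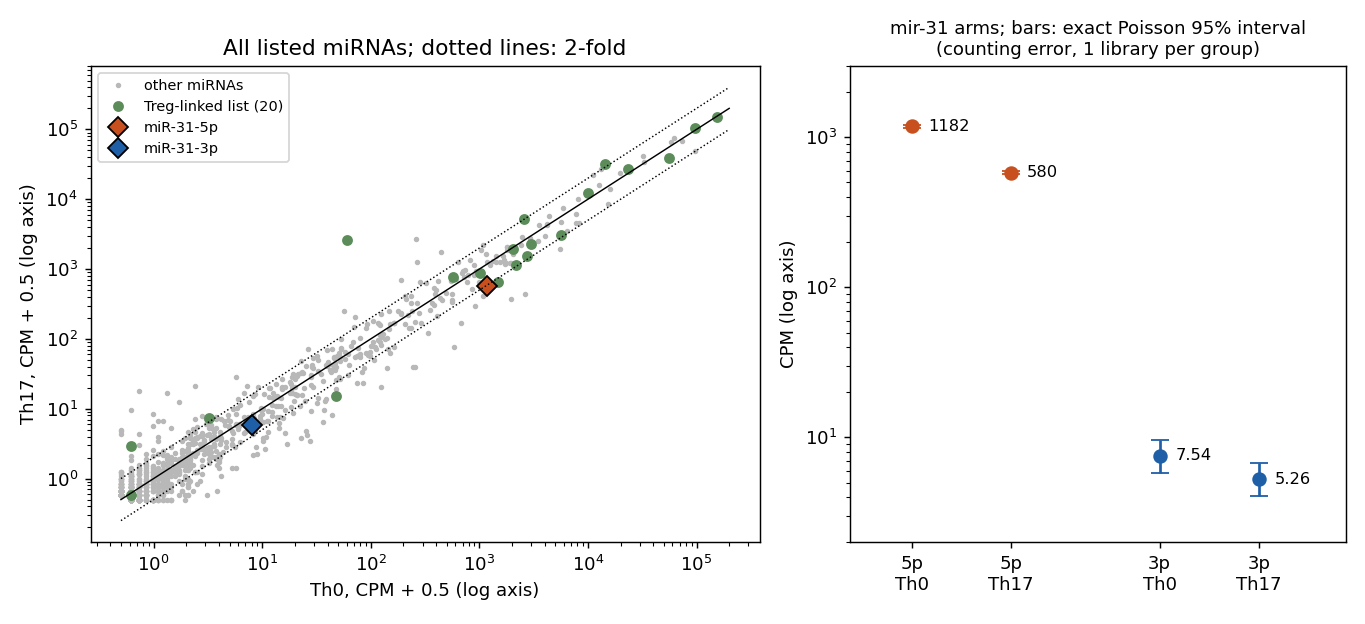
The left panel plots CPM + 0.5 of every listed miRNA in Th17 (vertical, log axis) against Th0 (horizontal, log axis), with the mir-31 arms as diamonds, 20 Treg-linked miRNAs in green, a solid line of equality and dotted lines at 2-fold. The right panel gives CPM of each arm on a log axis with exact Poisson 95% intervals, 1 library per group: the intervals of miR-31-5p, at 1182 and 580 CPM, lie apart, while the intervals of miR-31-3p, at 7.54 and 5.26 CPM, overlapped.

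The size of the miR-31-5p difference was read against all miRNAs. There were 298 miRNAs whose mean reached 10 CPM. Of these, 39 (13.1%) were lower in Th17 by 2-fold or more with an interval excluding equality, miR-31-5p among them, and 20 (6.71%) were higher by as much. The interval of the ratio lay below equality for 142 of the 298 (47.7%) and above it for 121 (40.6%). A direction alone is therefore common at these depths. The median log2 ratio over the 298 was -0.080, with quartiles of -0.60 and 0.38. miR-31-5p lay 0.95 below that median, and 37 of the 298 had a lower ratio. miR-31-3p had a log2 ratio of -0.48, and among the 154 miRNAs with a mean of 3 to 20 CPM, which are counted as thinly as it is, 46 had a lower ratio.

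Since miR-31-5p sat close to the 2-fold line, its call moved with the library scaling. It was 2.02-fold lower (1.96 to 2.09) with edgeR's TMM factors, 2.05-fold lower (1.99 to 2.11) with the totals implied by the deposited TPM, and 2.23-fold lower (2.16 to 2.30) when the total left out the 10 most abundant miRNAs. With DESeq2's size factors it was 1.93-fold lower (1.87 to 1.99) and no longer reached 2-fold. The direction was the same under all 5 scalings. For miR-31-3p the interval excluded equality only when the total left out the 10 most abundant, where it was 1.57-fold lower (1.09 to 2.26).

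**Figure D2:**
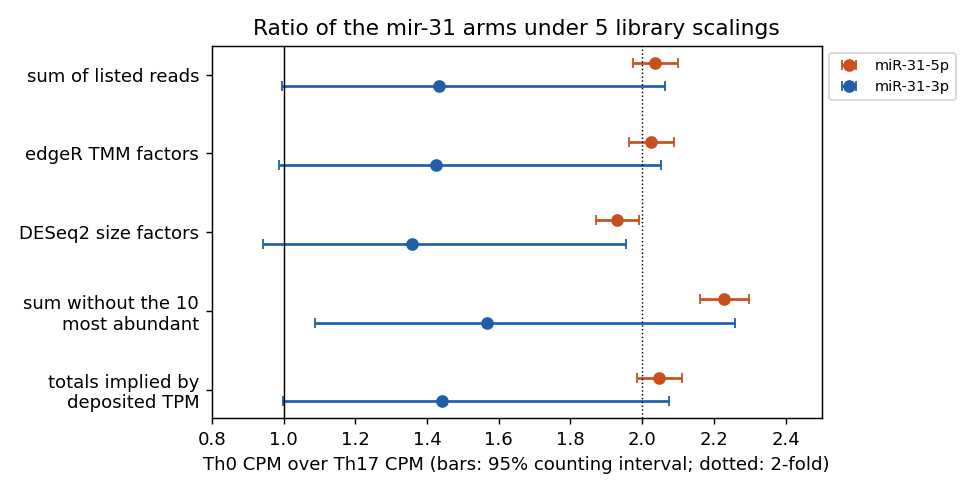
The plot gives the ratio of Th0 over Th17 CPM (horizontal axis) for miR-31-5p and miR-31-3p under 5 ways of scaling the libraries, with 95% counting intervals, a solid line at equality and a dotted line at 2-fold. miR-31-5p ranged from 1.93 to 2.23 across the scalings, and its interval fell wholly below the 2-fold line with DESeq2's size factors.

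The choice of arm did not depend on scaling. The 5p arm held 99.37% of the 9942 hairpin reads of the Th0 library (99.19 to 99.51%, exact binomial) and 99.10% of the 7012 reads of the Th17 library (98.85 to 99.31%), which was 157 reads of 5p for each read of 3p in Th0 and 110 in Th17. The 3p share was 0.634% (0.487 to 0.810%) in Th0 and 0.898% (0.691 to 1.15%) in Th17. These intervals overlapped, and the ratio of 3p to 5p reads was 1.42 times as high in Th17 with an exact interval of 0.985 to 2.05. The arms have different ends and base composition, and ligation of adapters in library preparation depends on both, so the shares are those of reads and not of molecules.

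Among 151 hairpins with at least 100 reads in each library and arms not shared with another hairpin, the median share of the more abundant arm was 98.0% in Th0 and 98.1% in Th17. mir-31 was more one-sided than this median in both, although 41 hairpins in Th0 and 53 in Th17 were more one-sided still. A shift of at least 10 percentage points with separate intervals was seen for 3 of the 151 (1.99%), and mir-31 was not among them. Its shift was -0.26 percentage points, and the median shift, without sign, was 0.54. The hairpins nearest in 5p share in Th0 were mir-106a (99.37% in Th0 and 98.7% in Th17), mir-211 (99.35% and 100%) and mir-139 (99.34% and 98.9%). They were covered by 474, 276 and 1739 reads in Th17, fewer than mir-31, and their 3p shares had wider intervals.

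**Figure D3:**
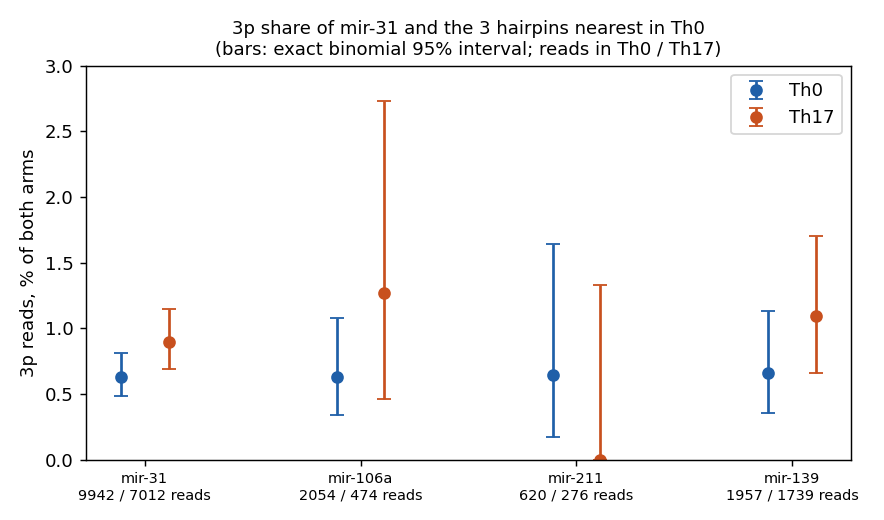
The vertical axis gives reads of the 3p arm as a percentage of both arms for mir-31 and the 3 hairpins nearest to it in Th0, with Th0 in blue, Th17 in orange, exact binomial 95% intervals as bars and the reads of both arms under each name. The mir-31 shares of 0.634% and 0.898% have overlapping intervals, as do those of the other hairpins.

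The neighbours of miR-31-5p in abundance changed between the libraries. In Th0 the next miRNAs above it were miR-421-3p at 1184 CPM, miR-21a-3p at 1263 CPM and miR-148b-3p at 1328 CPM, and the next below were miR-132-3p at 1156 CPM, miR-20a-5p at 1087 CPM and miR-99b-5p at 1084 CPM. Of these, miR-421-3p and miR-132-3p did not differ from miR-31-5p beyond counting error. In Th17 miR-30e-3p at 625 CPM, miR-106b-3p at 648 CPM and miR-24-2-5p at 649 CPM stood above it, and miR-106b-5p at 569 CPM, miR-212-5p at 529 CPM and miR-92a-1-5p at 519 CPM stood below. There the interval of miR-106b-5p alone overlapped that of miR-31-5p. miR-31-3p, at 63 reads, had intervals overlapping those of all 12 neighbours compared, such as miR-410-3p at 7.66 CPM in Th0 and miR-466f-3p at 5.26 CPM in Th17. Levels of different miRNAs are compared here as reads of molecules of nearly equal length.

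The miRNAs whose levels were most like those of miR-31-5p were found by Euclidean distance of log2(CPM + 0.5) over 2 libraries. The nearest was miR-106b-5p (distance 0.21), at 1026 CPM in Th0 against 569 CPM in Th17, 1.80-fold lower (1.75 to 1.86). It was followed by miR-24-2-5p (0.30), 1.52-fold lower, miR-17-5p (0.37), 2.22-fold lower, miR-92a-1-5p (0.50), 1.64-fold lower, and miR-20a-5p (0.52), 2.66-fold lower. Since they were chosen for this likeness, their direction is no result, and with 2 libraries the likeness holds level and ratio alone. The miRNAs nearest to miR-31-3p were miR-6960-5p (60 and 58 reads), miR-3076-3p (66 and 69), miR-669d-5p (56 and 64), miR-101a-5p (56 and 61) and miR-7646-5p (67 and 56).

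A list of 20 miRNAs linked to Foxp3 or to Treg cells by published work, without miR-31, was set beside it. All 20 were listed, and the mean of 17 reached 10 CPM. Of the 17, 7 had intervals above equality and 10 below, beside 40.6% and 47.7% of all miRNAs tested. By 2-fold or more, 3 were higher in Th17 and 2 lower, beside 6.71% and 13.1% of all miRNAs tested. When the total left out the 10 most abundant miRNAs, 2 were higher and 3 lower, beside 5.02% and 16.4%. The median log2 ratio of the 17 was -0.063, next to -0.080 over all 298. The list as a whole had no common direction, and 2 of its 17 measured members had a lower ratio than miR-31-5p. These were miR-126a-3p, a miRNA of endothelial cells also studied in Treg cells, at 47.7 CPM in Th0 against 14.9 CPM in Th17 (3.19-fold lower, 2.67 to 3.83), and miR-17-5p of the Mir17 cluster, at 1471 and 662 CPM (2.22-fold lower, 2.16 to 2.29).

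Other members reported to act on Foxp3 or to restrain Treg cells varied. miR-27a-3p, of a family that restrains Treg cells when overexpressed, was at 5635 CPM in Th0 against 3088 CPM in Th17 (1.82-fold lower), while its paralog miR-27b-3p was at 97526 and 106160 CPM (1.09-fold higher). miR-24-3p and miR-210-3p, both reported to target human FOXP3, were at 1013 and 892 CPM and at 2043 and 1955 CPM (1.14-fold and 1.04-fold lower). miR-145a-5p, reported to do the same, had 1 read in each library. Of these miRNAs reported to target FOXP3, miR-31-5p thus had a lower ratio than miR-24-3p and miR-210-3p, and the counts of miR-145a-5p allow no ratio to be read. miR-182-5p, which represses Foxo1 in activated helper T cells, was at 23621 and 26709 CPM (1.13-fold higher).

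Members with reported roles within Treg cells went both ways as well. miR-155-5p, a direct target of Foxp3 that sustains Treg fitness through Socs1, was at 14346 CPM in Th0 against 31749 CPM in Th17 (2.21-fold higher). miR-146a-5p was at 2552 and 5161 CPM (2.02-fold higher, 1.99 to 2.05), and it fell short of 2-fold, at 0.89 on the log2 scale, when the total left out the 10 most abundant. miR-10a-5p, induced by TGF-β and retinoic acid and a repressor of Bcl6, was at 2976 and 2292 CPM (1.30-fold lower), whereas its paralog miR-10b-5p was at 59.3 and 2611 CPM (44.0-fold higher). miR-125a-5p, reported to stabilise Treg cells, was 1.34-fold higher and miR-150-5p, a miRNA of mature lymphocytes, 1.24-fold higher. miR-142a-3p was 1.90-fold lower and passed 2-fold under the total without the 10 most abundant, at -1.06 on the log2 scale, so that, with miR-146a-5p then short of it, the list held 2 higher and 3 lower. miR-15b-5p was 1.79-fold lower and miR-16-5p 1.40-fold lower. The activation-induced miR-21a-5p was 1.02-fold lower, and under DESeq2's size factors its direction flipped, as did that of miR-210-3p, and that of miR-27b-3p flipped when the total left out the 10 most abundant miRNAs. The remaining members, below 10 CPM, were miR-99a-5p, on 1 and 29 reads, and miR-100-5p, on 23 and 82.

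**Figure D4:**
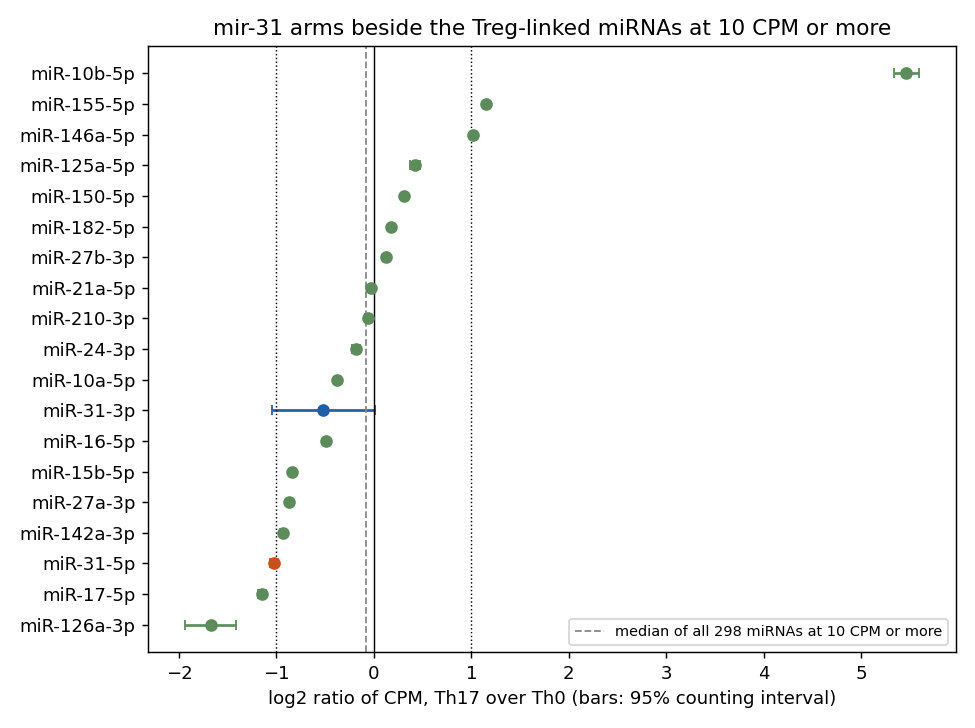
The horizontal axis gives the log2 ratio of CPM, Th17 over Th0, with 95% counting intervals, for the mir-31 arms and the 17 Treg-linked miRNAs whose mean reached 10 CPM, ordered by ratio, with dotted lines at 2-fold and a dashed line at the median of all 298 miRNAs. miR-31-5p lies just past the lower 2-fold line, with miR-17-5p and miR-126a-3p below it, and miR-10b-5p stands far to the right.

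Markers of other cell types were checked because miR-31 is also known from epithelial cells and keratinocytes. The 6 lymphocyte miRNAs of the fixed list summed to 102303 CPM in Th0 against 136717 CPM in Th17, led by miR-142a-5p at 58347 and 65898 CPM. Of the 6, 4 had intervals above equality and 2 below, beside 40.6% and 47.7% of all miRNAs tested. The 2 below were miR-142a-3p (1.90-fold lower) and miR-342-3p at 6349 and 3536 CPM (1.80-fold lower). All 6 were above 1000 CPM in both libraries, as the labelled cell type would have them. In the epithelial and keratinocyte list, 6 of 7 members reached a mean of 10 CPM, of which 5 had intervals below equality and 1 above, beside 47.7% and 40.6% of all miRNAs tested. Of the 6, 2 were lower by 2-fold or more, beside 13.1%, namely miR-200a-3p (37.1 and 12.4 CPM) and miR-200b-3p (3.79-fold), both with a lower ratio than miR-31-5p. The summed level of the list was 414 CPM in Th0 against 229 CPM in Th17. Within it miR-200b-3p was at 141 and 37.3 CPM and miR-203-3p, the keratinocyte miRNA, at 27.8 and 21.0 CPM, while miR-200c-3p was at 23.1 and 31.7 CPM. miR-205-5p, another defining keratinocyte miRNA, had 0 reads in Th0, which allows up to 0.359 CPM, and 1 read in Th17. The epithelial sum was thus lower in Th17, as miR-31-5p was, and its part in the miR-31-5p difference was not tested.

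The endothelial and stromal list summed to 194 CPM in Th0 against 113 CPM in Th17, with none of its 7 members at 0. It was split. miR-126a-5p was at 143 and 71.0 CPM and miR-126a-3p was lower as given above, and only these 2 reached a mean of 10 CPM. Below that mean, the fibroblast miRNA miR-199a-5p had 4 reads in Th0 and 93 in Th17, and miR-199a-3p had 10 and 142. Likewise higher in Th17 were miR-143-3p, on 6 and 73 reads, and miR-214-3p, on 1 and 19. miR-145a-5p had 1 read in each library. The lower sum thus came from the miR-126a arms. The myeloid pair, miR-223-3p and miR-223-5p, summed to 3.35 and 6.93 CPM, and the 3 erythroid miRNAs to 0.838 and 3.51 CPM, with miR-451a at 0.718 and 2.00 CPM and miR-144-5p on 1 and 16 reads. miR-223-5p and miR-144-3p were at 0 in Th0. The list linked to B cells and progenitors was higher in Th17, 1655 and 2991 CPM in sum, mostly through miR-99b-5p at 1084 and 2219 CPM, and miR-125b-5p had 4 and 62 reads. The part of these lists in the miR-31-5p difference was not tested.

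To show what the seed could pair with in mouse, the longest annotated 3′ UTR of 8 published or predicted target genes of miR-31 was searched for TCTTGCC, the exact complement of the miR-31-5p seed, on the transcript's strand in GENCODE M21. Such a match is a description of letters and says nothing of repression in these cells. Of 20911 genes with a 3′ UTR, 11.2% held the match, and 7 of the 8 genes did, with 13 matches in all. Some of these genes were proposed as targets because of such matches, so the count is no independent evidence. The 30-base windows shown are those of Foxp3, Gprc5a, Ppp6c (a phosphatase subunit) and the first match in Ksr2 (a scaffold of Ras signalling tied to miR-31 and interleukin-2 in T cells), with the match in capitals.
Foxp3: ggttgctcaaagtctTCTTGCCcatctctg
Gprc5a: cccagcacaccgccgTCTTGCCtggggctg
Ppp6c: tgctgaaatgctgccTCTTGCCtttttttt
Ksr2: acccctttgcaaagcTCTTGCCgtctgcac
The Foxp3 window lies at chrX:7594131-7594160 (plus strand), with the match starting at base 1103 of a 3′ UTR of 2202 bases. Among 3′ UTRs of 0.8 to 1.2 times that length, 16.6% held the match. The Gprc5a window lies at chr6:135083952-135083981 (plus strand), with the match starting at base 134 of a 3′ UTR of 876 bases, where 7.31% of those of like length held it. The Ppp6c window lies at chr2:39197220-39197249 (minus strand) and that of Ksr2 at chr5:117767039-117767068 (plus strand). None of these 4 matches is followed by an adenine, the base that lengthens a seed site. Rhoa, a small GTPase, held no match to the miR-31-5p seed and 1 to that of miR-31-3p, GCATAGC, which 5.49% of all 3′ UTRs held.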

How the data were processed

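Per the labels, total RNA was extracted with a mirVana kit, libraries were made with TruSeq small RNA chemistry and constructs of 140 to 150 bp were gel-purified. The authors deposited, per library, counts of reads per mature miRNA, not normalized, and TPM values, which are those counts over a single total (9072995 in Th0, 13070648 in Th17) times 1000000, with no length term. The submitters' processing notes name mm10 as the build. An aligner, an annotation release and a rule for reads that match several miRNAs were not stated in any source read here.

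Counts were divided by the sum of listed reads, 8358010 in Th0 and 11975371 in Th17 (CPM). Intervals are exact (Poisson for levels, Clopper-Pearson for shares and, conditional on both counts, for ratios) at 95%. The interval of the ratio was tried on simulated Poisson counts with known totals. That simulation holds neither PCR copies nor spread between cultures, so it cannot show how the interval fares in these libraries. Reads copied by PCR and carrying no molecular identifier are not independent, so the intervals cover counting error only. A call needed a mean of 10 CPM, a 2-fold ratio and an interval excluding equality. The alternatives were edgeR 4.0.16 TMM factors (1.00 and 0.997) and DESeq2 1.42.0 size factors (0.858 and 1.16) in R 4.3.3, other totals, other additions before the log2 and other minimums. The members and lists were chosen with earlier results of these data known. The text names both arms, 3 neighbours on either side by level, the 5 nearest by pattern and the Treg-linked list. The 3 hairpins nearest in arm share are named too. Of other lists, the extreme members and some or all others are named, among them defining markers (chosen after their values were seen). RefSeq sequences were matched by name for 935 of 1125 listed miRNAs, both arms included.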

Additional observations from a re-analysis of the deposited data

How the results depend on the processing

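The miR-31-5p log2 ratio stayed negative under all 6 alternatives and kept its place past 2-fold under 5 of them. Among these 5 are the additions of 0.1 and 1 CPM before the log2. At the level of miR-31-5p they could hardly move the ratio (-1.03 with either), so only the other scalings put the call to a test. With DESeq2's size factors the miR-31-5p log2 ratio was -0.95, and both arms summed were at -0.94, short of 2-fold. miR-31-3p stayed negative and short of 2-fold under all 6. The numbers of miRNAs called higher and lower were 20 and 39 (6.71% and 13.1% of 298). With no minimum they were 69 and 100 (6.13% and 8.89% of 1125). With a minimum mean of 100 CPM they were 13 and 15 (8.23% and 9.49% of 158). The higher share thus rose as fewer miRNAs were tested, while the lower share was largest at the minimum of 10 CPM. The higher and lower shares were closest at 100 CPM. Leaving the 10 most abundant miRNAs out of the total shifted every log2 ratio by -0.13 and gave 15 higher and 49 lower, but left the distance of miR-31-5p from the median of all miRNAs as it was. The share of hairpins with an arm shift was 1.99%, and 2.37% and 2.04% with minimums of 20 and 1000 reads. With 63 reads per library, depth limits every statement on miR-31-3p. No paired analysis was possible because each group has 1 library and the labels give no replicate numbers, and no library could be left out.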
